A study of Mus musculus with 4 samples.

Results

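The TRAF adaptors, the inhibitor of apoptosis proteins (IAPs) and the deubiquitinases A20 and CYLD were examined as a set of 10 genes, Traf1, Traf2, Traf3, Traf5, Traf6, Birc2, Birc3, Xiap, Tnfaip3 and Cyld. Members were the probe sets, the groups of short oligonucleotides that measure a transcript on the array, whose only annotated gene symbol was 1 of these names. The rule gave 26 of 45037 probe sets and covered 9 of the 10 genes, among 18193 genes with a symbol of their own on the array. No probe set carried the symbol Traf3, and that gene was not analysed here. The groups were unstimulated L929 cells, a long-established mouse connective tissue line, and unstimulated NIH3T3 cells, a mouse embryo fibroblast line, with 2 arrays per line and no treatment in either. The submitters describe L929 as prone to necrosis and NIH3T3 as prone to apoptosis, so the comparison asks how resting transcript levels of the ubiquitin machinery at death receptors differ between them. Each kind of death is represented by a single line, so the kind of death and the line cannot be told apart.

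When tumour necrosis factor binds its receptor, TRAF2 and its relative TRAF5 bring the ubiquitin ligases cIAP1 and cIAP2 to the receptor complex, and the ubiquitin chains made there recruit the kinases that switch on NF-kB and keep the cell alive. CYLD and A20 act on such chains; loss of the chains lets the complex pass to caspase-driven apoptosis or, where caspases are blocked, to necroptosis, a death that CYLD is known to favour. XIAP works further down by binding and inhibiting executioner and initiator caspases directly, and TRAF6 serves interleukin-1 and Toll-like receptors rather than the tumour necrosis factor receptor. Several of these genes (Traf1, Birc3 and Tnfaip3) are themselves well-known NF-kB targets.

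All values below are MAS5 signals in arbitrary units after the arrays were brought to the same trimmed mean, and differences are log2(signal + 8.01) in L929 minus NIH3T3. Testing required that a probe set exceed a signal of 17.3 on both arrays of either line. This is the 40th percentile of all signals, a working level and not a measured detection limit. A call needed more than a 1.5-fold difference and a limma adjusted p below 0.05. Both cut-offs come from the submitters' design, which names no test. The correlation across tested probe sets was 0.982 between the L929 arrays and 0.981 between the NIH3T3 arrays, against 0.835 to 0.843 between lines. NIH3T3 replicate 2 was brighter as deposited, with a trimmed mean of 210.3 against 134.5 to 142.2 on the other 3 arrays. All 10 fibroblast markers lay above the working level on every array, although 1 was called higher and 3 lower in L929. The higher one was Pdgfrb (1.99-fold), and the lower ones were Fn1 (2.39-fold), Pdgfra (5.41-fold) and Thy1 (70.9-fold). Thy1 read 2190 and 2250 in NIH3T3 but 18 and 30 in L929, where 1 array lay close to the working level. Of 5 leukocyte markers 2 exceeded it on all 4 arrays, Cd68 and Adgre1, and Cd68 was called lower in L929 (32.6 and 30.6, against 66.6 and 64.1 in NIH3T3), while Ptprc, Cd3e and Itgam lay below it on all 4. Of 5 epithelial markers 3 exceeded it on all 4 arrays (Epcam, Krt8 and Krt5), and of 4 endothelial markers 1 did so on both L929 arrays (Kdr) and 0 on both NIH3T3 arrays. The summed signal ran from 71.9 to 78.6 in L929 and from 106 to 126 in NIH3T3 for leukocyte markers, from 148 to 149 in L929 and from 158 to 174 in NIH3T3 for epithelial markers, and from 47.4 to 70.6 in L929 and from 45.8 to 66.0 in NIH3T3 for endothelial markers; their part in the results below was not tested. Nothing in the labels tells whether the replicates came from separate cultures, so the p-values reflect the spread among these arrays alone, which may be technical. Fewer expressing cells cannot be told apart from less RNA per cell.

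The promoters of the genes that were called are shown first, with that of Birc2, the neighbour and close relative of Birc3, and that of Tnfaip3. Each is the window from 250 bases before to 50 bases after a RefSeq transcript start on assembly GRCm38.p6, read 5′ to 3′ on the gene's strand, and capitals mark CG dinucleotides. Where a gene has several windows, the first listed is shown.
Traf1 promoter, chr2:34961723-34962022, - strand: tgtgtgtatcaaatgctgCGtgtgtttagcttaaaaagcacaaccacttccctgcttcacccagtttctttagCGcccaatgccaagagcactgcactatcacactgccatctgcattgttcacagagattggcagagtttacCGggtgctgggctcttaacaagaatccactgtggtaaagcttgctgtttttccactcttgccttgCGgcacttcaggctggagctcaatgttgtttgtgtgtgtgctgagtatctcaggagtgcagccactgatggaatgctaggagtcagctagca
Traf2 promoter, chr2:25546891-25547190, - strand: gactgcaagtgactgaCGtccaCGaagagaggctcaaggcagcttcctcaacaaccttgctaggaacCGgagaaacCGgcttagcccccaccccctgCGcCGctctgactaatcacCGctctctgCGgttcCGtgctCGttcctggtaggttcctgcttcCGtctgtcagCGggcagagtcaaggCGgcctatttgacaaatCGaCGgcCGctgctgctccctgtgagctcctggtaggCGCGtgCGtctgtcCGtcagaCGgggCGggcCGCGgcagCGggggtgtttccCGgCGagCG
Xiap promoter, chrX:42068148-42068447, + strand: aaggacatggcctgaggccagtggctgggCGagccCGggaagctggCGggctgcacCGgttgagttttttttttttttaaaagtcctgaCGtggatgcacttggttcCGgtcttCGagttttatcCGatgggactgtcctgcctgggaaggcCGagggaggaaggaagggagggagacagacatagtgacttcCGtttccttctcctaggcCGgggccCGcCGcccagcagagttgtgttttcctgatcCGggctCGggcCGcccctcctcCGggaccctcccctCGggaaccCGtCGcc
Birc2 promoter, chr9:7837008-7837307, - strand: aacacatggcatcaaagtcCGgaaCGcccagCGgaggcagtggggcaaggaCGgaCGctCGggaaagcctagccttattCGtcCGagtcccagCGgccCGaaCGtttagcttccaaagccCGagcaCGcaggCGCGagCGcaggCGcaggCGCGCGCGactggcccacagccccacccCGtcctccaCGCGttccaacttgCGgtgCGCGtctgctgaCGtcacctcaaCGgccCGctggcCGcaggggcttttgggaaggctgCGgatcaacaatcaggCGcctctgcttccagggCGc
Birc3 promoter, chr9:7873121-7873420, - strand: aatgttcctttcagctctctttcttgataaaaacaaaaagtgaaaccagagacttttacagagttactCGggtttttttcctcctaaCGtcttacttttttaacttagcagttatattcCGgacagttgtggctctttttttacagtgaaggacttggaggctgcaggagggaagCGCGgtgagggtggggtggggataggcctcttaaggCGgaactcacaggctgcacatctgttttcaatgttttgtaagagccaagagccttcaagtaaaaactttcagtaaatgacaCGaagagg
Tnfaip3 promoter, chr10:19015361-19015660, - strand: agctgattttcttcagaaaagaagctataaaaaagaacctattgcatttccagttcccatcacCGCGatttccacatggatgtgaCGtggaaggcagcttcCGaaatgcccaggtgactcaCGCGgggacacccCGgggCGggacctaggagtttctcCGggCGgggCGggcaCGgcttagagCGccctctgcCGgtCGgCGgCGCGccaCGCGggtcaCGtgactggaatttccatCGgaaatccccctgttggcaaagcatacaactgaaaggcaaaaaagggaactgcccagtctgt

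The CG content of the promoters differed between genes and between windows of a gene. The Traf1 window held 4 CG dinucleotides and the Birc3 window 7, against 28 for Traf2, 34 for Birc2, 22 for Tnfaip3 and 20 for Xiap; the median over all tested genes with a window was 21, taking each gene's richest window. Over all single windows the median was 7 CG, the same as in the Birc3 window. Other member windows held counts like those of Traf1 and Birc3, with 5 and 2 CG for Xiap and 6 for Tnfaip3. Traf1 and Birc3 each had a called probe set whose dimmer line lay below 17.3 on both arrays. A dim Traf6 probe set did too, and the Traf6 window held 19 CG. Over the array, with each gene classed by its brightest tested probe set, called genes whose dimmer line lay below 17.3 on both arrays had a median of 14.5 CG (660 genes), the other called genes 22 (2902 genes) and genes that were not called 21 (6657 genes). Birc3 fell in the first of these classes, Traf1 in the second, through its brighter probe set, and Traf6 in the third. These medians are a description over genes, with no test, and the classes were not matched for signal. The NF-kB consensus decamer was searched on both strands as GGGRNNYYCC. Here R is A or G, Y is C or T, and N is any base. This pattern occurred in at least 1 window of 4 of the 10 genes, against 9.55% of all 27025 genes with a window. The matches, in capitals as read on the gene's strand, were GGGGATTTCC in Traf3, GGGACCCTCC in Xiap, GGAAAGTCCC in Cyld, and GGAAATCCCC and GGGACACCCC in Tnfaip3. A match is a description of these letters and no evidence of binding, and the lack of a match in the Traf1, Traf2, Birc2 and Birc3 windows covers these 300 bases alone.

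Differences between the lines ran in both directions. Traf1, Traf2 and Xiap were higher in L929 and Birc3 was lower, whereas Birc2, Traf5, Tnfaip3 and Cyld were not called. Of the 26 probe sets 21 were tested, of which 4 were called higher, against 14.9% of all 27438 tested probe sets, and 2 lower, against 16.7%. With 31.6% of all tested probe sets called in either direction, 6 of 21 is close to the background. Of the 21 tested probe sets 7 passed the filter through 1 line alone, so the called counts describe the members and support nothing. The median difference was 0.25 over the tested member probe sets and -0.01 over all tested probe sets. The arrays of the lines did not overlap for 18 of the 21, against 69.9% of all tested probe sets, so non-overlap by itself sets the members little apart.

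**Figure D1:**
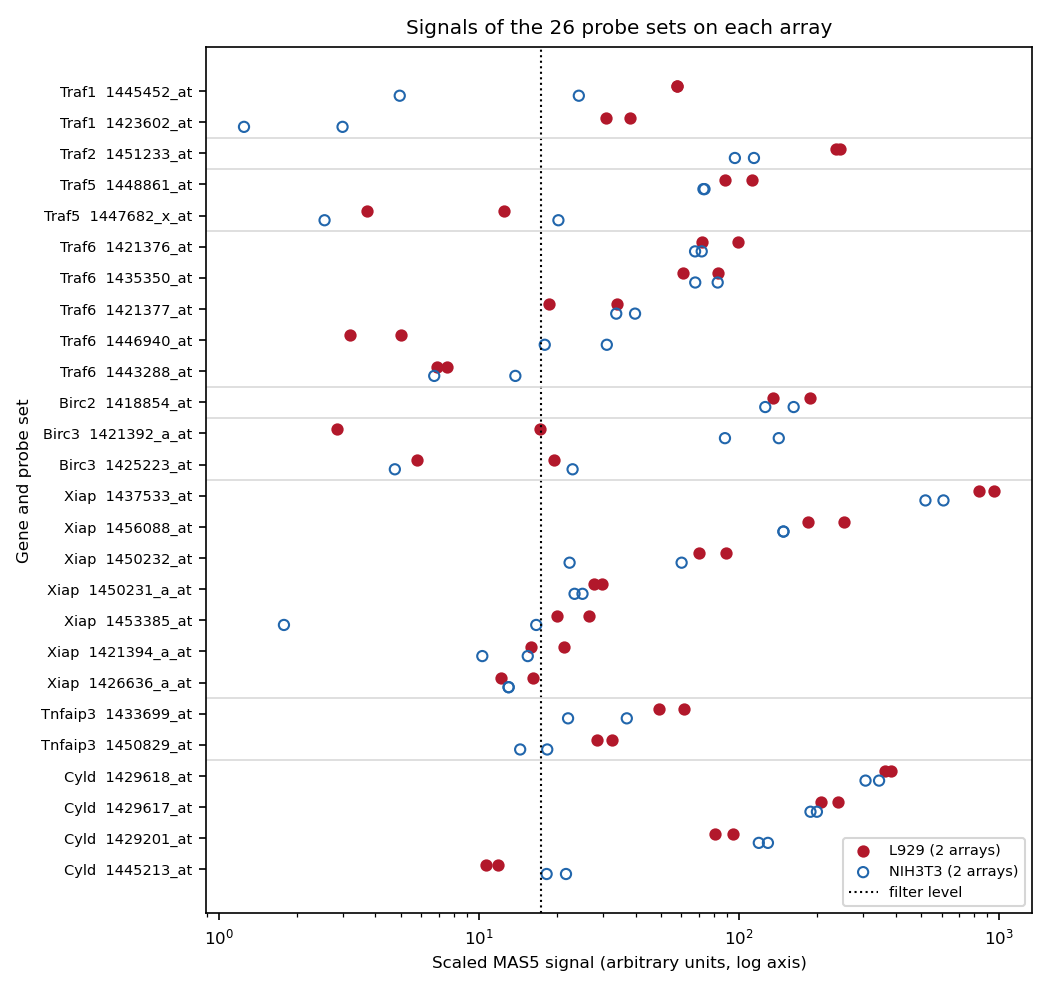
Scaled MAS5 signal (horizontal log axis, arbitrary units) of the 26 probe sets, with filled red points for the 2 L929 arrays, open blue points for the 2 NIH3T3 arrays and a dotted line at the working level of 17.3. Traf1 1423602_at is above the line in L929 and below it in NIH3T3, and Birc3 1421392_a_at shows the opposite.

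Among the TRAF adaptors, Traf1 and Traf2 were higher in L929. Traf1 encodes the family member that lacks the RING domain of a ubiquitin ligase and modulates the cIAP-binding function of TRAF2. Its probe set 1423602_at read 38.0 and 30.9 in L929 and 2.99 and 1.25 in NIH3T3, so both L929 arrays lay above the working level and both NIH3T3 arrays below it. The difference was 2.07 ± 0.30 (SE, n = 2 per line, limma adjusted p = 9.09e-04). As a bound, on the mean of log2 signals, L929 lay 1.99-fold above the working level. The second probe set, 1445452_at, read 57.6 and 57.8 in L929 and 4.96 and 24.2 in NIH3T3, where 1 of 2 arrays exceeded the level. It differed by 1.68 ± 0.42 (limma adjusted p = 0.0129). The NIH3T3 arrays lay far apart on this probe set, and the difference was 1.03 without NIH3T3 replicate 1 and 2.34 without NIH3T3 replicate 2, called in both cases. The size of the 1423602_at difference was set by the offset: it was 0.96 with an offset of 32 and 3.56 with an offset of 1, called in both.

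Traf2, the adaptor that carries the cIAPs to the receptor, was clearly above background in both lines. Its only probe set, 1451233_at, read 235 and 245 in L929 and 114 and 96.3 in NIH3T3, a 2.20-fold difference (1.13 ± 0.15 on the log2 scale, limma adjusted p = 4.63e-04). The lines did not overlap, and the call held with each array left out in turn. Without scaling the difference was 0.86 (limma adjusted p = 0.193), or 1.14 relative to the median of all probe sets, which then lay at -0.28.

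Traf5 and Traf6 gave no difference that all of their probe sets shared. Traf5, which can stand in for TRAF2, read 112 and 88.4 in L929 and 73.6 and 72.9 in NIH3T3 on 1448861_at; the difference of 0.41 had a 95% confidence interval from -0.05 to 0.86 (limma adjusted p = 0.144). Its second probe set, 1447682_x_at, whose suffix marks probes that may bind other transcripts, read 12.5 and 3.72 in L929 and 20.2 and 2.55 in NIH3T3 and was too dim to be tested.

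Traf6, the ubiquitin ligase of interleukin-1 and Toll-like receptor signalling, had 5 probe sets, 4 of them tested. The brightest, 1421376_at, read 98.9 and 71.9 in L929 and 67.7 and 71.8 in NIH3T3, and 1435350_at read 60.8 and 83.0 in L929 and 67.8 and 82.7 in NIH3T3. Neither was called, with differences of 0.25 (95% confidence interval -0.26 to 0.75) and -0.07 (-0.59 to 0.46). A dim Traf6 probe set went the other way: 1446940_at read 3.18 and 5.02 in L929, below the working level on both arrays, and 17.9 and 31.0 in NIH3T3. It was called lower, with a bound of 1.37-fold (log2 difference -1.40 ± 0.33, limma adjusted p = 0.0104). That call was lost without L929 replicate 1 (limma adjusted p = 0.054) or NIH3T3 replicate 2 (0.119). The probe set had too low a mean to be tested when the filter looked at the 4-array mean. The remaining pair were 1421377_at, which read 34.0 and 18.6 in L929 and 39.8 and 33.7 in NIH3T3 (difference -0.42, limma adjusted p = 0.333), and 1443288_at, which lay below the working level on all 4 arrays.

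**Figure D2:**
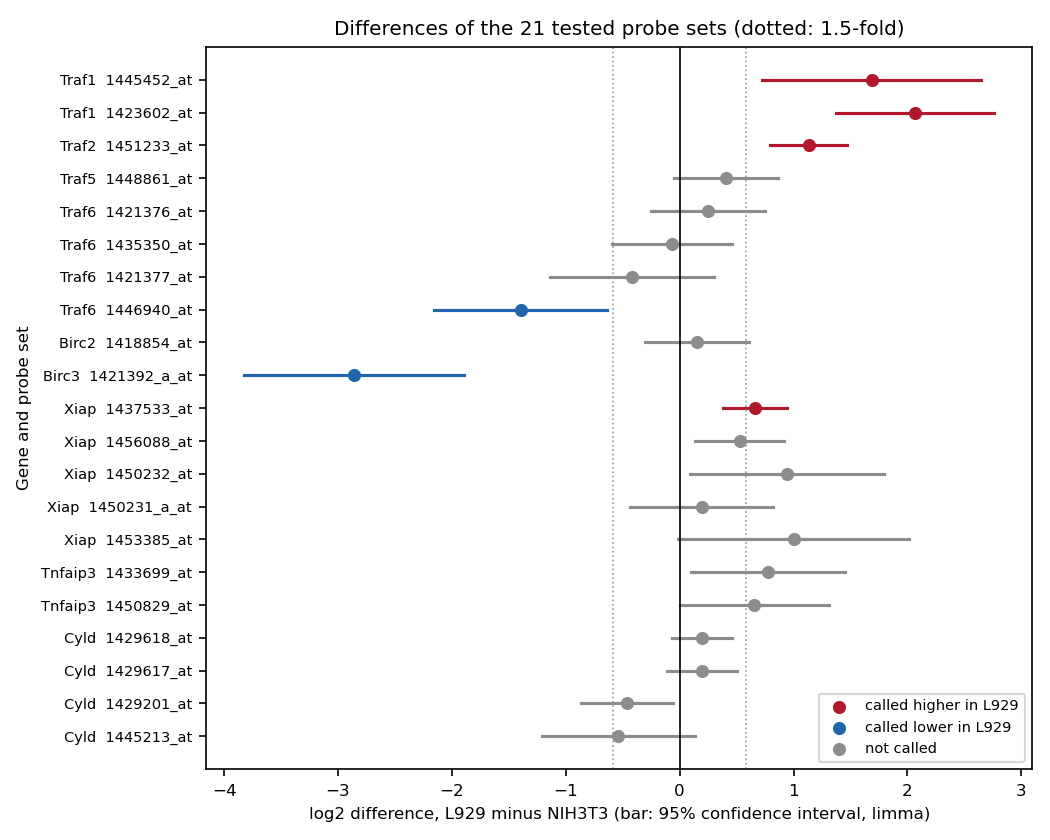
Log2 difference, L929 minus NIH3T3, of the 21 tested probe sets with 95% confidence intervals from limma; dotted lines mark 1.5-fold in each direction. The 4 red probe sets (Traf1 in both, Traf2, Xiap) were called higher in L929 and the 2 blue ones (a dim Traf6 probe set and Birc3) lower.

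Of the IAPs, Birc3 was lower and Xiap modestly higher in L929, while Birc2 was not called. Birc3 encodes cIAP2 and Birc2 encodes cIAP1, ubiquitin ligases of overlapping function that lie next to each other on chromosome 9. Birc3 probe set 1421392_a_at read 2.85 and 17.2 in L929, both below the working level, and 88.2 and 142 in NIH3T3. The lines were well separated although the L929 arrays themselves differed, and Birc3 was lower in L929 (log2 difference -2.86 ± 0.42, limma adjusted p = 9.28e-04). As a bound, the mean NIH3T3 log2 signal lay 6.48-fold above the working level, which leaves out the spread between arrays. Birc3 stayed called under all 14 alternatives for probe sets, with differences from -3.75 (offset of 1) to -1.80 (offset of 32). It was -2.25 without L929 replicate 1 and -3.47 without L929 replicate 2. The second Birc3 probe set, 1425223_at, read 5.78 and 19.4 in L929 and 22.9 and 4.75 in NIH3T3, so that its lines overlapped near background and it was not tested.

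Birc2 was measured by 1 probe set, 1418854_at, which read 188 and 135 in L929 and 126 and 162 in NIH3T3. The lines overlapped, the difference was 0.15 with a 95% confidence interval from -0.30 to 0.60 (limma adjusted p = 0.581), and its sign turned without L929 replicate 1 (-0.07), without NIH3T3 replicate 1 (-0.02) and without scaling (-0.12). The neighbouring genes therefore gave confidence intervals that do not meet, since that of Birc3 ran from -3.83 to -1.89; the difference between them was not itself tested.

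Xiap, the direct caspase inhibitor, had 7 probe sets, of which 5 were tested. All 5 had higher means in L929, with the smallest log2 difference at 0.19, but they measure the same RNA and are not independent. The arrays of the lines did not overlap on any of these 5, and did not on 69.9% of all tested probe sets. The brightest, 1437533_at, read 958 and 838 in L929 and 520 and 610 in NIH3T3, 1.58-fold higher in L929 (log2 difference 0.66 ± 0.12, limma adjusted p = 0.00327). This lay close to the fold threshold: it was 0.57 without L929 replicate 1 (limma adjusted p = 0.0334) and 0.55 without NIH3T3 replicate 1 (0.0138), both under 1.5-fold. Without scaling it was 0.38 (limma adjusted p = 0.578), or 0.66 relative to the median of all probe sets.

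The next Xiap probe set, 1456088_at, read 253 and 184 in L929 and 148 and 148 in NIH3T3, a 1.44-fold difference that passed on p (limma adjusted p = 0.0378) and not on fold; it was called with quantile normalization, median scaling and without L929 replicate 2. On 1450232_at the values were 70.1 and 89.3 in L929 and 22.3 and 60.1 in NIH3T3 (0.94 ± 0.37, limma adjusted p = 0.0784), and the NIH3T3 arrays lay apart. It was called with the replicate block (limma adjusted p = 0.0214), with quantile normalization (0.0463), with median scaling (0.0351) and without NIH3T3 replicate 2 (1.52, limma adjusted p = 0.0093), and its adjusted p ranged from 0.0093 to 0.352. The dim 1453385_at read 20.0 and 26.4 in L929 and 1.78 and 16.6 in NIH3T3, and 1450231_a_at averaged 28.7 ± 1.26 in L929 and 24.1 ± 1.19 in NIH3T3 (SD, n = 2 each). Neither was called, although 1453385_at was without NIH3T3 replicate 2 (1.67, limma adjusted p = 0.0266), and 1450231_a_at turned to -0.03 without scaling. The untested 1421394_a_at and 1426636_a_at read between 12.2 and 21.2 in L929 and between 10.3 and 15.4 in NIH3T3.

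No deubiquitinase probe set was called. Tnfaip3 encodes A20, which edits ubiquitin chains on the receptor complex and restrains NF-kB, and both of its probe sets had higher means in L929 without reaching the threshold. Probe set 1433699_at read 49.3 and 61.2 in L929 and 22.0 and 37.0 in NIH3T3 (0.78 ± 0.29, limma adjusted p = 0.068), and 1450829_at read 28.3 and 32.4 in L929 and 18.3 and 14.4 in NIH3T3 (0.66 ± 0.29, limma adjusted p = 0.105). Neither pair overlapped. The first was called with quantile normalization, median scaling or the stricter filter and without NIH3T3 replicate 2, where the difference was 1.07, and its adjusted p ranged from 0.0353 to 0.452 over 14 alternatives. The second was called in 1 of 13 alternatives, without the mean-variance trend. At gene level Tnfaip3 was called higher in the same settings as 1433699_at. It was also called there with the replicate block and with the mean of its tested probe sets.

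Cyld, which removes lysine-63-linked and linear ubiquitin chains, had 4 probe sets that pointed both ways. The brightest, 1429618_at, read 362 and 385 in L929 and 306 and 345 in NIH3T3, and 1429617_at read 239 and 206 in L929 and 188 and 199 in NIH3T3. Both differed by 0.19, with 95% confidence intervals from -0.07 to 0.46 and from -0.11 to 0.50, so on these a difference of 1.5-fold lay outside the interval; without scaling they differed by -0.09 and -0.08. The other 2 had lower means in L929: 1429201_at read 94.8 and 80.9 in L929 and 119 and 129 in NIH3T3 (-0.46 ± 0.18, limma adjusted p = 0.0697), and 1445213_at read 10.6 and 11.8 in L929, below the working level, and 21.6 and 18.2 in NIH3T3 (-0.54 ± 0.29, limma adjusted p = 0.184). The lines did not overlap on any of the 4, whatever the direction, against 69.9% of all tested probe sets.

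**Figure D3:**
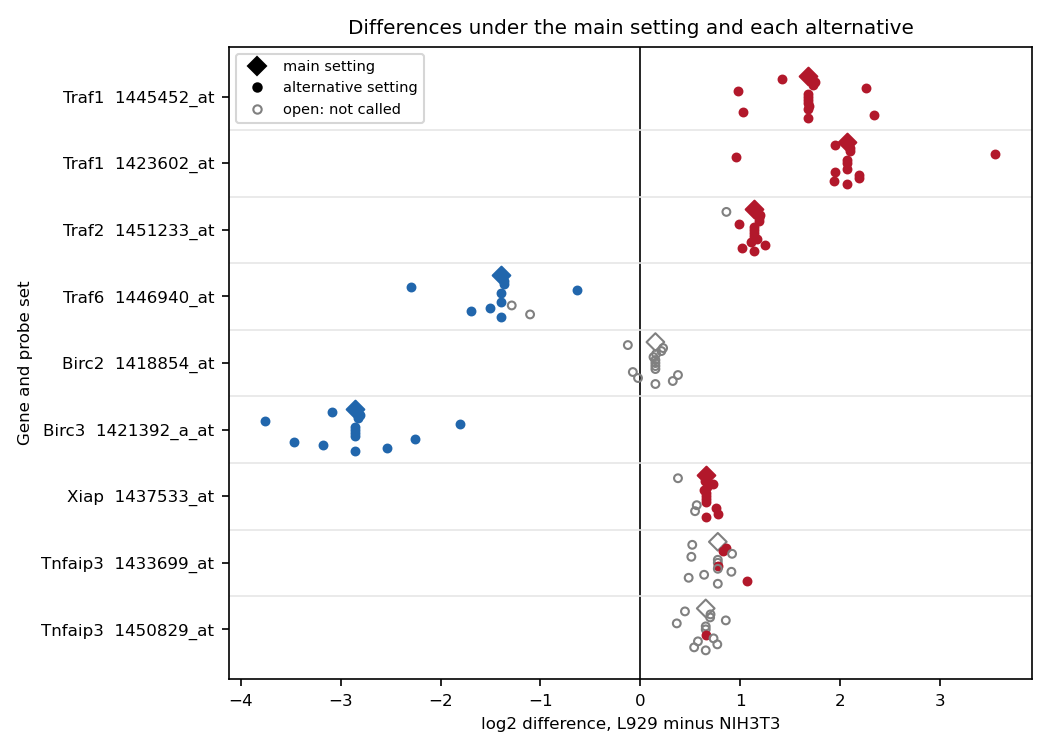
Log2 difference, L929 minus NIH3T3, of 9 probe sets under the main setting (diamonds) and each alternative (circles); filled red or blue marks are called and open grey marks are not. Both Traf1 probe sets and Birc3 1421392_a_at stayed called wherever they were tested, Xiap 1437533_at was lost in 3 alternatives and Birc2 1418854_at scattered around 0.

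Taking the brightest tested probe set of each gene, 3 of 9 members were higher and 1 lower, against 17.4% and 17.8% of all 12676 tested genes. The median difference was 0.41 over these 9 genes and 0.01 over all genes. Around them, 86 other tested genes of the pathway gave 15 higher and 10 lower, together 29.1%, against 35.2% of all genes, with a median of 0.08.

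Receptors that recruit TRAFs gave 1 higher and 3 lower of 15 tested, and 2 higher without L929 replicate 2 or NIH3T3 replicate 1. Cd40, a receptor that signals through TRAF2, TRAF3 and TRAF6, read 160 and 124 in L929 and 16.8 and 37.4 in NIH3T3, where 1 of 2 arrays exceeded the working level, a 4.45-fold difference (limma adjusted p = 6.71e-04). Il1rap, the shared chain of the interleukin-1 receptor, was 3.87-fold lower in L929, at 129 and 129 against 592 and 459 (limma adjusted p = 1.36e-05). Averaged over its tested probe sets, Il1rap differed by -1.03 on the log2 scale, against -1.95 on the brightest. Its partner Il1r1 was 1.74-fold lower. Eda2r, which binds ectodysplasin, was lower, with a bound of 2.44-fold. The tumour necrosis factor receptor Tnfrsf1a was not called, at 627 and 734 in L929 and 815 and 840 in NIH3T3 (limma adjusted p = 0.0755); it lies outside the rule for named genes and was chosen after its values were seen.

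TRAF relatives and TRAF-binding proteins gave 3 higher and 1 lower of 10. Tbkbp1 and Azi2 encode adaptors of the kinase TBK1, and were 3.04-fold and 2.01-fold higher in L929. Averaged over all tested probe sets of the gene, the log2 difference was 1.10 for Tbkbp1, against 1.605 on the brightest. For Azi2 it was 0.12, against 1.008. Traf3ip1, an intraflagellar transport protein, was 1.64-fold higher, a call lost without NIH3T3 replicate 1 (0.59 on the log2 scale, limma adjusted p = 0.0556), with an offset of 32 and without scaling. Traf3ip2, the adaptor of the interleukin-17 receptor, was 1.79-fold lower, at 126 and 143 in L929 against 263 and 231 in NIH3T3 (limma adjusted p = 0.0015). The lower count was 2 without NIH3T3 replicate 2.

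Other BIR-domain proteins and IAP antagonists gave 2 called genes of 9, both higher in L929. They were the inflammasome sensors Naip2 (1.70-fold) and Naip5 (1.96-fold, with 1 of 2 NIH3T3 arrays above the working level). Naip genes are close copies of each other, so signals may be shared between them. The call of Naip5 was lost in 6 of 14 alternatives, without L929 replicate 1, L929 replicate 2 or NIH3T3 replicate 1 among them. In this list 1 gene was called lower in some alternatives. Among them were no scaling, median scaling, an offset of 32, the replicate block and the mean of tested probe sets. Xaf1 narrowly missed a call in the main setting, at 26.1 and 6.6 in L929 and 47.6 and 36.2 in NIH3T3 (log2 difference -1.15, limma adjusted p = 0.0502).

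Among other ubiquitin ligases, deubiquitinases and ubiquitin binders 4 of 24 were higher and 4 lower. Siah2, a RING ubiquitin ligase, read 286 and 365 in L929 and 113 and 132 in NIH3T3, 2.54-fold higher (limma adjusted p = 2.03e-04). Averaged over its tested probe sets, Siah2 differed by 0.90 on the log2 scale, against 1.35 on the brightest. Otulin, which cuts linear chains, was 1.76-fold higher. Otud7b, a deubiquitinase related to A20, was 1.75-fold higher on its brightest probe set, while the mean over all of its tested probe sets differed by -0.06. Usp2 was 2.75-fold lower, Otub1 2.30-fold lower and Rnf11, a partner of A20, 1.97-fold lower, at 1200 and 1270 in L929 against 2590 and 2310 in NIH3T3 (limma adjusted p = 2.97e-04).

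Kinases and adaptors downstream of the TRAFs gave 2 higher and 1 lower of 18. Map3k5, the stress kinase ASK1 that TRAF2 activates, read 208 and 206 in L929 and 13.3 and 1.79 in NIH3T3, which lay below the working level. Its excess in L929 had a bound of 12.0-fold (log2 difference 3.89, limma adjusted p = 5.34e-05). Averaged over its tested probe sets, the log2 difference was 3.07. Myd88, the adaptor upstream of TRAF6, was 2.02-fold higher, and the kinase Irak2 was 2.29-fold lower. The lower count was 2 without scaling, with median scaling, an offset of 1, the replicate block or the mean of tested probe sets. It also rose without L929 replicate 2.

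NF-kB subunits and inhibitors gave 3 higher and 1 lower of 10. The higher genes were Nfkbid (3.52-fold), Nfkbiz (3.38-fold) and Nfkbia, which encodes IkB-alpha, 1.62-fold higher at 1370 and 1490 in L929 against 810 and 958 in NIH3T3 (limma adjusted p = 0.00201). Without NIH3T3 replicate 1 the call of Nfkbia was lost. Bcl3, a nuclear IkB protein, was lower, with a bound of 2.82-fold. The IkB genes Nfkbib (log2 difference -0.05) and Nfkbie (-0.48) were not called, and the lower count of the list was 2 without L929 replicate 1.

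**Figure D4:**
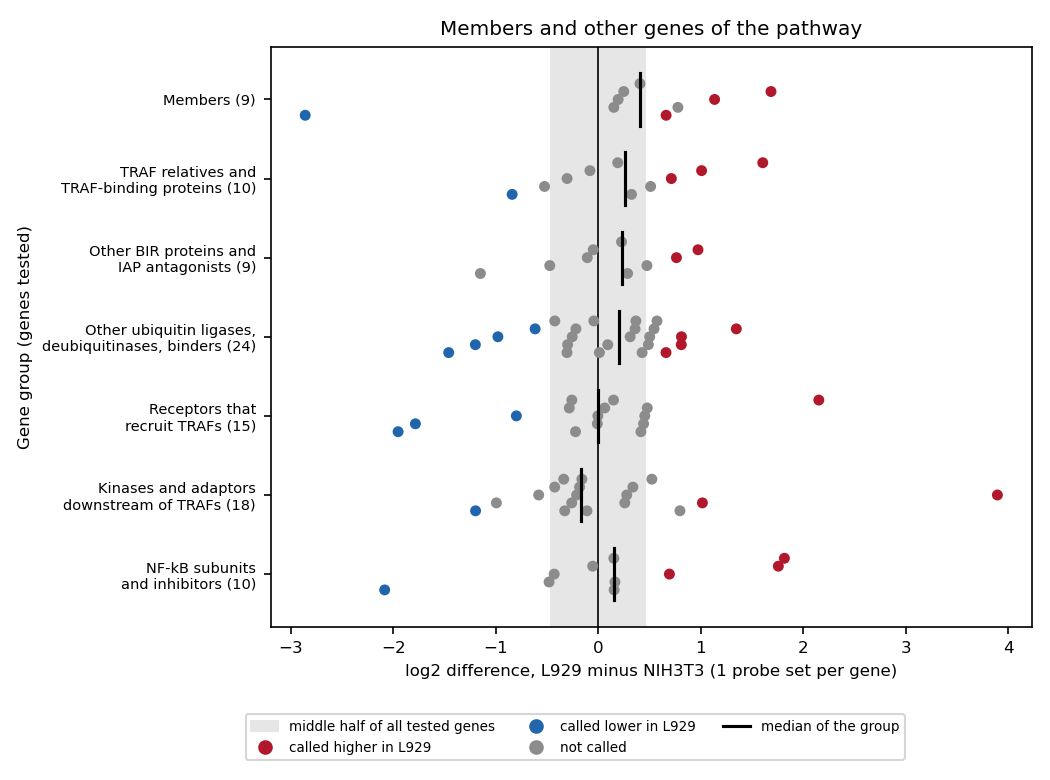
Log2 difference, L929 minus NIH3T3, of 1 probe set per gene for the 9 tested members and the 6 lists of other pathway genes; black bars are medians and the grey band holds the central part of all 12676 tested genes, from -0.46 to 0.46. Called genes lie on both sides of 0 in most rows, with Map3k5 farthest to the right and Birc3 farthest to the left.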

How the data were processed

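Per the labels, Trizol and RNeasy columns yielded the RNA, which was labelled with biotin and hybridised to Affymetrix Mouse Genome 430 2.0 arrays. The deposited values are intensities, 1 for every probe set on every array, and MAS5 is named in the submitters' processing notes. Neither its settings nor a build is given in the sources used here. No detection calls were used, and 64 control probe sets were left out. Gene symbols came from the platform annotation, in which 34945 probe sets have 1 symbol, 932 several and 9160 none.

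Each array was scaled by 1.07 (L929 replicate 1), 1.14 (L929 replicate 2), 1.13 (NIH3T3 replicate 1) or 0.726 (NIH3T3 replicate 2) to a common mean trimmed by 2% at each end. The offset of 8.01 is the 25th percentile of scaled signals. All 4 arrays entered one fit in R 4.3.3 (limma 3.58.1, functions lmFit and eBayes, trended variance), and p-values were adjusted with Benjamini-Hochberg over all tested probe sets. For counts of genes, the brightest of its tested probe sets stood for a gene, with adjustment over genes. Bounds set the brighter line's mean log2 signal against 17.3 and leave out the spread between arrays. Scripts were tested on simulated data. Promoters were read from RefSeq windows of GRCm38.p6 and covered all 10 members and 80.6% of tested genes. Members, lists and tests were chosen with earlier results of these data known. Genes named besides the members are up to 3 called genes per direction of each list. The marker genes and the uncalled Tnfrsf1a, Xaf1, Nfkbib and Nfkbie are named outside this rule. The number of arrays limits the precision, and an exact permutation test of 2 against 2 arrays cannot go below p = 0.333. The correlation of the deviations of same-numbered arrays was 0.014, so the numbers were not taken to pair them. Alternatives covered scaling, offset, filter, variance trend, left-out arrays, a replicate block and the choice of probe set.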

Additional observations from a re-analysis of the deposited data

How the results depend on the processing

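Over the 21 tested probe sets, 254 values under the alternatives kept their direction and their side of the threshold, 6 lost a call, 13 gained one and 10 turned sign without being called. The 4 probe sets called higher became 2 without scaling and 7 with quantile normalization or median scaling, and ranged from 3 to 7 when 1 array was left out. The 2 called lower became 1 without scaling, with the stricter filter or when the filter looked at the 4-array mean, and ranged from 1 to 2 when 1 array was left out. At gene level the 3 higher members became 1 without scaling, when only Traf1 remained, and the 15 higher genes of the pathway lists became 5. Calls higher in L929 made up 28.5% of all calls without scaling and 47.2% with it, and the median of all probe sets moved to -0.28. With the replicate block 5 member probe sets were called higher and 2 lower, Xiap 1450232_at being gained, and at gene level Tnfaip3 was gained. Of 23 named pathway genes 12 stayed called in every alternative that gave a value and 18 in every alternative but no scaling. The exception in direction was Otud7b, at -0.062 as the mean of its tested probe sets. Signals near the working level of 17.3 limit what can be said of Traf1 in NIH3T3 and of Birc3 in L929.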
